A study of Mus musculus with 5 samples.

Results

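Chromosome 19 is the shortest autosome of the mouse, and 1014 of the 30398 listed RAP1 peaks lie on it, 3.34% of the list. The members are every listed peak whose chromosome is 19. The chromosome itself was selected on its measured number of peaks per Mb, and its dense megabase and groups were chosen by their peak counts, so its density, its dense megabase and its groups of peaks are described here and not tested. The study immunoprecipitated chromatin with an antibody to RAP1 from mouse embryonic fibroblasts of mixed background, grown with puromycin and immortalised with the SV40 large T antigen, which inactivates p53 and the retinoblastoma protein. Per the labels there are 2 wild-type libraries, 2 libraries from fibroblasts in which Rap1 was deleted, which serve as the negative control, and 1 input library made without antibody. All 5 libraries came from large T immortalised fibroblasts, so no value here speaks for cells with intact p53. The list gives 1 positive and 1 negative read set for each peak, read here as the pooled wild-type and the pooled Rap1-deleted libraries, so no value has a spread between replicates.

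RAP1 belongs to shelterin, the protein complex that covers the TTAGGG repeats of telomeres, where TRF2 holds it. It is also known from sites inside chromosomes. Mouse autosomes are telocentric: the centromere lies at the low-coordinate end and the long arm runs to the distal telomere. Chromosome 19 is rich in genes and carries, in its proximal part, Malat1 and Neat1, abundant nuclear long noncoding RNAs of which the second builds paraspeckles. In a RefSeq table of the GRCm38 assembly the chromosome has 705 protein-coding genes. That is 12.2 per Mb of the span between the first and last listed peak, a gene density below only chromosomes 7 and 11. The list uses the mm9 build, whose sequence and annotation were not used here, so no peak was placed on a gene and no peak sequence is shown.

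From the first listed peak at 3353757 to the last end at 61275587, the peaks of chromosome 19 stand at 17.5 per Mb. That is 1.42 times the median of 12.3 over the other 18 autosomes, which run from 6.91 to 18.4, and only chromosome 11 is denser. Peak length has a median of 55 bp (quartiles 37 and 76, full range 29 to 523 bp), against 56 bp over the whole list, and together they cover 78.2 kb. The median peak has 28 positive reads over its length (quartiles 24 and 35, full range 12 to 97), as in the whole list. The mean of 31.003 reads per peak is exceeded by 1 of the other 19 chromosomes and lies within the narrow range of 29.01 to 31.5 over the other autosomes. The peaks of chromosome 19 are thus many, while their length and height lie inside the range of the other autosomes.

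In the share of read-rich, well-ranked, very short and broad peaks, the whole-list value lay inside the 95% interval of chromosome 19. Intervals of shares, here and below, take each peak as a separate draw. Peaks cluster along the chromosome and are not replicates, so these intervals can be too narrow and are no test. On chromosome 19, 51 peaks (5.03%, exact Clopper-Pearson 95% interval 3.77 to 6.56) hold 50 or more positive reads, where the whole list has 4.23%. The authors' false discovery rate is 0.01 or less for 553 peaks (54.5%, 51.4 to 57.6), with 55.9% in the whole list. Peaks of 29 to 31 bp number 188 (18.5%, 16.2 to 21.1) against 17.8%, and peaks of 120 bp or more number 116 (11.4%, 9.55 to 13.6) against 10.5%. In 937 peaks (92.4%) the reverse-strand mode lies downstream of the forward-strand mode, as it does for 93.0% of the list. The best 1000 ranks of the list include 38 peaks of chromosome 19, where an even share would be 33.4.

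Control reads were counted in the strand windows, the windows in which the list gives forward and reverse reads of each set and which can reach beyond the peak. Of the 1014 peaks, 225 (22.2%, 19.7 to 24.9) have at least 1 negative strand-window read, with 18.8% in the whole list. The share is exceeded on chromosomes 11, 15 and 17, and over the other autosomes it runs from 12.7% to 25.6%, with a median of 17.8%. In the plot of the 20 chromosomes, chromosome 19 sits near chromosomes 11, 15 and 17 in share. Chromosome 17 is less dense, at 14.3 peaks per Mb with 25.4%, and chromosome 10, at 15.2 per Mb, has 18.0%. The share of peaks with negative reads describes the control reads and does not measure binding. For the positive reads of these pooled libraries, binding in fewer cells and weaker binding in every cell cannot be told apart.

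**Figure D1:**
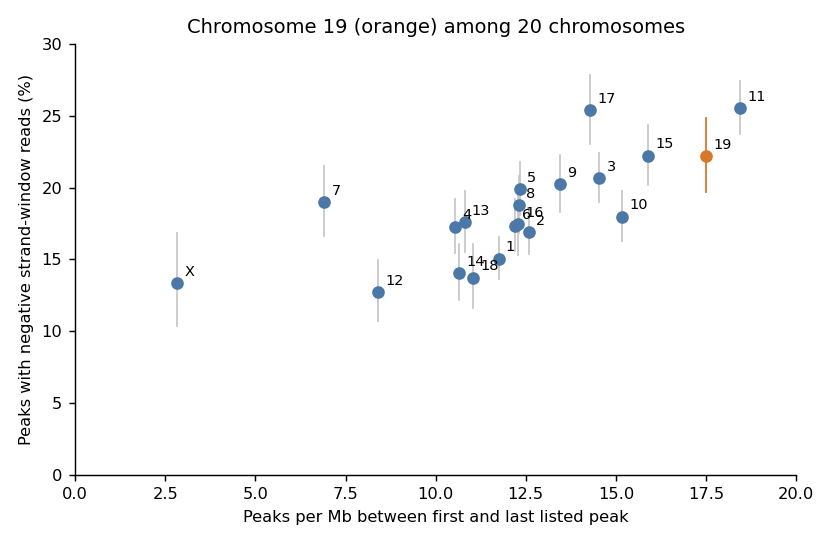
Each point is a chromosome, with peaks per Mb between its first and last listed peak on the x axis, the percent of its peaks with negative strand-window reads on the y axis, and an exact 95% interval as a vertical line. Chromosome 19, in orange, lies at 17.5 peaks per Mb and 22.2%; chromosomes 11 and 17 have the highest shares.

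Positive and negative sets were compared as a strand ratio, the positive strand-window reads over the negative ones after these are multiplied by 3.32, the scale that the deposited fold columns imply. Summed over chromosome 19, 31258 positive stand against 1921 negative window reads, which gives a strand ratio of 4.90 (exact conditional 95% interval 4.68 to 5.13). The ratio is 5.72 (5.67 to 5.77) over the whole list, and over the other autosomes it runs from 3.88 to 8.23 with a median of 6.22. Chromosome 19 stands 17th of 20 from the highest. Intervals of ratios reflect the counting error of reads alone and take each read as a separate molecule. Reads copied by PCR do not count separate molecules, so the intervals can be too narrow. Strand windows can reach beyond a peak, so where peaks lie close, as in groups, a read could be counted at both. Every listed peak has a minimum of positive reads on each strand, and the rule of entry is not named. The ratio therefore describes the list.

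The negative reads fall unevenly on the peaks. Of the 225 peaks with negative reads, 198 have them in the window of a single strand. Their number runs from 1 to 34 with a median of 7. The strand ratio of these 225 peaks has a median of 1.33 (quartiles 0.794 and 2.51), the same median as in the whole list, and runs from 0.255 to 14.8. It is 1 or less in 80 peaks (7.89%, 6.31 to 9.72), with 6.58% in the whole list. These 80 peaks carry 60.4% of all negative strand-window reads of the chromosome, a share raised by choosing them for low ratios. In 21 peaks the whole interval lies under 1, and in 48 it lies above 1. The remaining 789 peaks have no negative read in any column. With a floor of 3 negative reads, their positive windows are at least 2.01-fold to 8.23-fold higher, with a median bound of 2.71-fold, but a bound near 2-fold restates the minimum of 10 positive reads per strand that every listed peak has.

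Over the peaks themselves the list gives almost no negative reads: 3 peaks of chromosome 19 have 1 each (0.296%, with 0.257% in the whole list). The peak from 5802180 to 5802275 has 73 positive and 1 negative read, and 65 against 2 in the strand windows. The peak from 46822239 to 46822268 has 49 against 1 in both. The peak from 10651741 to 10651802 has 50 positive reads and 1 negative read over its length, but 57 against 34 in the strand windows, a ratio of 0.505 (0.324 to 0.796) and the most negative reads of any peak on the chromosome. Of the 252 strand entries with negative reads, 144 (57.1%) have their highest negative window inside the peak, so a 0 in the whole-peak column does not mean that the control had no reads there. In 7 peaks (0.690%, with 0.444% in the whole list) the deposited log2 fold of a single strand is under 0.

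The density of chromosome 19 changed sharply along its length. In 59 bins of 1 Mb the count runs from 1 to 66 peaks with a median of 16, and the variance of the counts is 7.26 times their mean, or 5.17 times without the densest bin. Over the other autosomes that figure runs from 3.22 to 10.1, with a median of 5.41. Most bins are moderate, with 34 of 59 holding 10 to 25 peaks. Only 6 bins reach 30 peaks, and these hold 252 peaks, 24.9% of the chromosome. They are 5 to 6 Mb with 66 peaks, 4 to 5 Mb with 40, 37 to 38 Mb and 46 to 47 Mb with 39 each, 47 to 48 Mb with 37 and 10 to 11 Mb with 31. At the other extreme 5 bins have 5 or fewer: 39 to 40 Mb with 1, 13 to 14 Mb and 26 to 27 Mb with 3, 52 to 53 Mb with 4 and 51 to 52 Mb with 5. The longest distance between neighbouring peaks, 1333 kb, runs from 39004569 to 40337664.

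**Figure D2:**
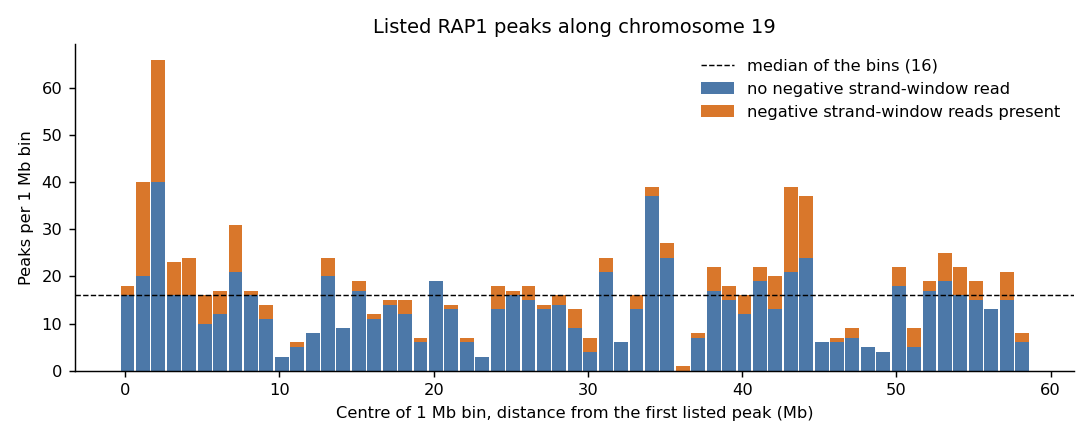
Bars give the number of listed peaks in each 1 Mb bin of chromosome 19, by the distance of the bin centre from the first listed peak in Mb, with peaks that have negative strand-window reads in orange and the median of 16 as a dashed line. The tallest bar, with 66 peaks, is the third bin, and a single bin holds 1 peak.

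Cut at these changes of density, the chromosome falls into 8 stretches, chosen after the counts were seen. The 3 to 13 Mb stretch has 27.6 peaks per Mb and 266 peaks, 26.2% of the chromosome. A poor stretch from 13 to 16 Mb follows with 5.67 per Mb, then 20 Mb of moderate density to 36 Mb with 13.9 per Mb. The 3 Mb from 36 to 39 Mb have 27.3 per Mb, as dense as the proximal stretch, and are followed by 4.50 per Mb from 39 to 41 Mb. From 41 to 48 Mb the density is 24.9, from 48 to 53 Mb it is 6.20, and the distal stretch to the last peak has 19.1 per Mb.

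Dense stretches differed in how many control reads they carry. In the 3 to 13 Mb stretch 33.1% of peaks have negative strand-window reads and the strand ratio is 3.20 (2.98 to 3.44). From 41 to 48 Mb the values are close to these, with 30.5% and 3.29 (3.00 to 3.61). The equally dense stretch from 36 to 39 Mb has negative reads in only 9.76% of its 82 peaks, and its ratio is 14.3 (11.0 to 19.1). Its negative reads come from 8 peaks, while its interval takes each read as separate. The moderate stretch from 16 to 36 Mb has negative reads in 36 of 277 peaks and a ratio of 9.27 (8.20 to 10.5). The poor stretches from 13 to 16 Mb and from 48 to 53 Mb have negative reads in 1 of 17 and 3 of 31 peaks and ratios of 18.8 (9.02 to 46.9) and 9.68 (6.65 to 14.6). In the poorest stretch, from 39 to 41 Mb, 2 of 9 peaks have negative reads and the ratio is 23.0 (7.77 to 112). The distal stretch has 5.96 (5.23 to 6.82). No test was made of these differences, since the cuts follow the peaks.

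**Figure D3:**
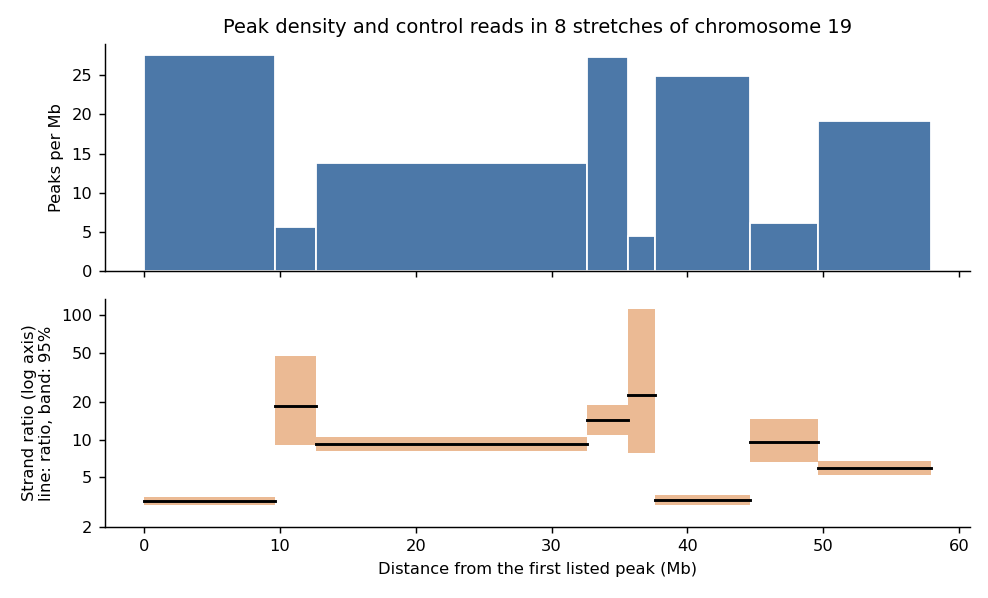
The upper panel gives peaks per Mb in 8 stretches of chromosome 19 and the lower panel the strand ratio on a log axis with its exact 95% interval as a band, both by distance from the first listed peak in Mb. The stretch about 33 to 36 Mb in is as dense as the first but has a ratio of 14.3 against 3.20.

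By single bins, negative reads gathered in a few places. The 5 bins with the most negative strand-window reads are 4 to 5, 5 to 6, 46 to 47, 47 to 48 and 10 to 11 Mb. Picked for these reads, they hold 862 negative reads, 44.9% of the chromosome's, with 21.0% of its peaks. The 4 to 5 Mb bin has the lowest ratio of the 49 bins with negative reads, 1.72 (1.49 to 2.003). The bin from 8 to 9 Mb is the only other one under 2, at 1.76 (1.41 to 2.22). In contrast, the 39 peaks from 37 to 38 Mb have 12 negative reads (ratio 29.8, 17.0 to 57.8), and 10 bins have no negative read at all, of which 23 to 24 Mb is the fullest with 19 peaks. Across the 55 bins with 5 or more peaks, the number of peaks went with the percent that have negative reads (Pearson r 0.447, Spearman rho 0.387) and with the mean positive reads per peak (r 0.433, rho 0.436). These bins share the same pooled libraries and the same peak caller.

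The densest megabase, from 5000000 to 6000000, holds 66 peaks, 6.51% of the chromosome (5.07 to 8.21) and 4.12 times its median bin. It was chosen for this count, so the interval is no test of its density. Among the 2500 bins of the list with a peak, only 1 holds more. Its peaks have 19 to 95 positive reads with a median of 32, and 8 of them reach 50. Of the 66, 26 (39.4%, 27.6 to 52.2) have negative strand-window reads, with 18.8% in the whole list, and the strand ratio is 3.74 (3.22 to 4.36). At its edges, the last peak before it, from 4993059 to 4993090, has 23 positive reads and the first inside, from 5015432 to 5015645, has 32. The last inside, from 5975092 to 5975143, has 23 and the next, from 6015514 to 6015580, has 40.

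Within this megabase the peaks are not evenly spread. In steps of 100 kb, the 2 fullest are 5.8 to 5.9 Mb with 16 peaks and 5.6 to 5.7 Mb with 12, and the emptiest is 5.5 to 5.6 Mb with 1. Neighbouring steps differ in control reads. From 5.6 to 5.7 Mb, 1 of 12 peaks has negative reads, 399 positive stand against 5 negative reads, and the ratio is 24.0 (10.2 to 74.4). From 5.7 to 5.8 Mb, 8 of 10 peaks have them and the ratio is 2.67 (2.01 to 3.62). From 5.8 to 5.9 Mb, 9 of 16 have them and the ratio is 2.24 (1.75 to 2.89). A read-rich peak outside the groups, from 5488732 to 5488962, has 86 positive reads and no negative read, at least 8.23-fold higher.

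**Figure D4:**
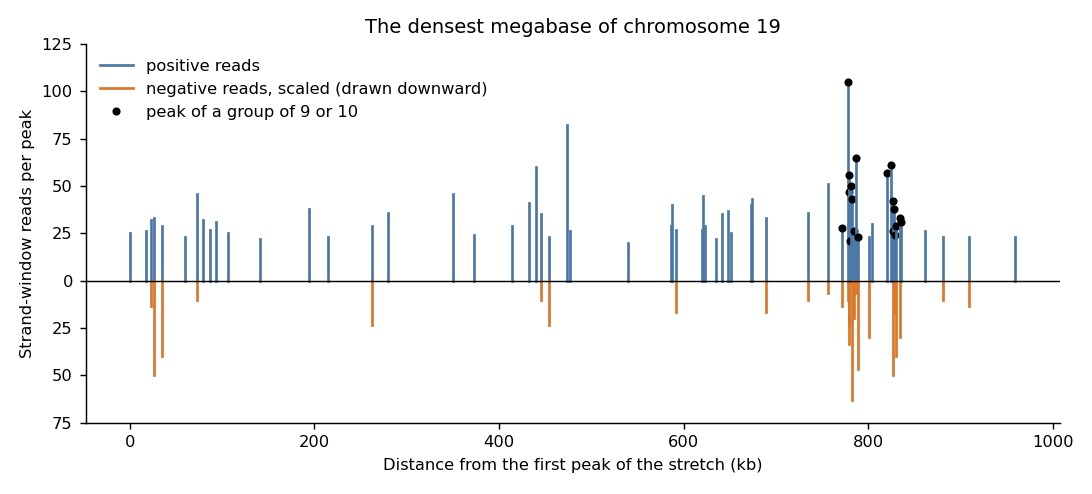
Each vertical line is a peak of the densest megabase, by distance in kb from the first peak in it, with its positive strand-window reads upward and its negative reads times 3.32 downward; black dots mark the peaks of its 2 groups of 5 or more. Both groups stand at the right, where positive lines reach 105 reads and most negative lines are found.

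Joining neighbours within 10 kb left 568 of the 1014 peaks alone, and placed the others in 159 groups of 2 to 4 and 8 groups of 5 or more, 735 units in all. The whole list has 113 groups of 5 or more. Of neighbouring pairs on chromosome 19, 27.5% are under 10 kb apart, against 20.1% on the other autosomes, and the median distance is 27.5 kb against 38.5 kb. Closer spacing goes with the density for which the chromosome was chosen and is not a separate result. Peaks in larger groups had more control reads: 45.5% of the 55 peaks in groups of 5 or more have negative reads, 23.3% of the 391 in groups of 2 to 4 and 19.2% of the single peaks. The strand ratios are 2.28 (2.003 to 2.62), 4.71 (4.38 to 5.07) and 5.81 (5.43 to 6.22). The whole list shows the same order, with 2.56, 4.68 and 6.92, so this is not particular to chromosome 19.

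In the 5 to 6 Mb bin, the first group of 5 or more peaks lies from 5786593 to 5804345 and holds 10 peaks in 17.8 kb. Its peaks have 21 to 95 positive reads, with a median of 42.5 against 28 over the chromosome. The best-ranked is the peak from 5794075 to 5794133, 59 bp long with 95 positive reads and rank 103 of the list; in its windows 105 positive stand against 3 negative reads (10.5, 3.51 to 51.9). The peak from 5802180 to 5802275 is second, with 73 reads and a ratio of 9.79 (2.60 to 82.5). These 2 peaks have few control reads, whereas others between and beside them have many. The peak from 5797782 to 5797827 has 43 positive and 19 negative strand-window reads, a ratio of 0.681, and the last peak, from 5804270 to 5804345, has 23 against 14, a ratio of 0.495. The peak from 5794814 to 5794849 has 47 against 10 (1.42), the one from 5795108 to 5795317 has 56 against 7 (2.41) and the one from 5800550 to 5800627 has 26 against 6 (1.30), values between these extremes. No negative read stands at 2 peaks, from 5796209 to 5796237 with 21 positive strand-window reads and from 5796882 to 5797113 with 50. Control reads were thus found at most members, on both sides of the 2 read-rich peaks. The first peak, from 5786593 to 5786621, has 28 against 4 (2.11) and sits apart from the other 9. Over the group 8 of 10 peaks have negative reads, 464 positive stand against 65 negative reads and the ratio is 2.15 (1.66 to 2.83).

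The second group lies 31.6 kb further on, from 5835981 to 5851585, with 9 peaks in 15.6 kb. Here 24 to 61 positive reads stand at a peak, with a median of 33. Its 2 best-ranked peaks come first along the chromosome and have no negative read: from 5835981 to 5836085, 105 bp with 57 positive reads and rank 204, at least 5.72-fold higher, and from 5840553 to 5840621 with 61 reads and rank 298, at least 6.12-fold higher. The peaks from 5842541 to 5842602, from 5843540 to 5843595 and from 5851545 to 5851585 also have none, with 42, 38 and 31 positive strand-window reads. The control reads of the group sit at its other 4 peaks, which carry all 41. From 5842263 to 5842291 there are 26 against 15 (0.522), from 5844671 to 5844869 24 against 5 (1.45), from 5845861 to 5845895 29 against 12 (0.728) and from 5850047 to 5850076 33 against 9 (1.10). The group's ratio is 2.50 (1.81 to 3.55), an interval that overlaps that of the first group.

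Between the 2 groups lie 2 further peaks, from 5816045 to 5816082 with 23 against 9 strand-window reads and from 5820095 to 5820158 with 30 against 0. The 2 groups span 65.0 kb in all and hold 28.8% of the peaks of the megabase. Of their 19 peaks 12 (63.2%, 38.4 to 83.7) have negative reads, and together their ratio is 2.29 (1.87 to 2.83). The other 47 peaks of the megabase have negative reads in 14 (29.8%, 17.3 to 44.9) and a ratio of 5.62 (4.50 to 7.10), close to the 5.72 of the whole list. Low ratios are not confined to the 2 groups: from 5.0 to 5.1 Mb, outside both, 4 of 8 peaks have negative reads and the ratio is 2.18 (1.52 to 3.22).

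The proximal group, between 4 and 5 Mb, has more control reads for its positive reads than both. From 4309897 to 4316424 it packs 6 peaks into 6.53 kb, the tightest of the 8 groups of 5 or more peaks on the chromosome, with 22 to 39 positive reads each. In its strand windows 179 positive stand against 64 negative reads (ratio 0.842, 0.630 to 1.14), so that after scaling the control has about as many reads as the wild-type set. The peak from 4315520 to 4315576 is the best-ranked of the group, at rank 1560, with 39 positive reads against 23 negative ones in the windows (0.511). The peaks from 4309897 to 4309994 and from 4316395 to 4316424 have 33 against 16 (0.621) and 22 against 16 (0.414), and the one from 4315316 to 4315345 has 24 against 7 (1.03). The peak from 4314643 to 4314683 has 33 against 2 (4.97), and only the peak from 4313571 to 4313600, with 28 positive reads, has no negative read. Over the whole bin from 4 to 5 Mb, 20 of 40 peaks have negative reads and 11 have a ratio of 1 or less, more than in any other bin of the chromosome.

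Of the other 5 groups, 3 have negative reads and 2 have none. Near 9 Mb, 3 groups follow each other: 9 peaks from 8951221 to 8982604 with a ratio of 1.93 (1.40 to 2.70), 5 peaks from 9015924 to 9028975 with 1.98 (1.31 to 3.12) and 5 peaks from 9047714 to 9067555 with 3.84 (2.14 to 7.59). In the first, a single peak from 8960901 to 8960968 gives 29 of the 45 negative reads. The second starts with the peak from 9015924 to 9016005, rank 239 with 52 positive reads, whose ratio is 1.20 (0.647 to 2.41). The remaining 2 groups have no negative read at any peak: 5 peaks from 18739480 to 18755507, with 152 positive strand-window reads and at least 15.3-fold higher, and 6 peaks from 38105197 to 38131357, with 172 and at least 17.3-fold higher. Groups of similar size on chromosome 19 therefore range from a ratio of 0.842 to no control read at all. Over the chromosome, 789 of the 1014 peaks have no negative read either.

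**Figure D5:**
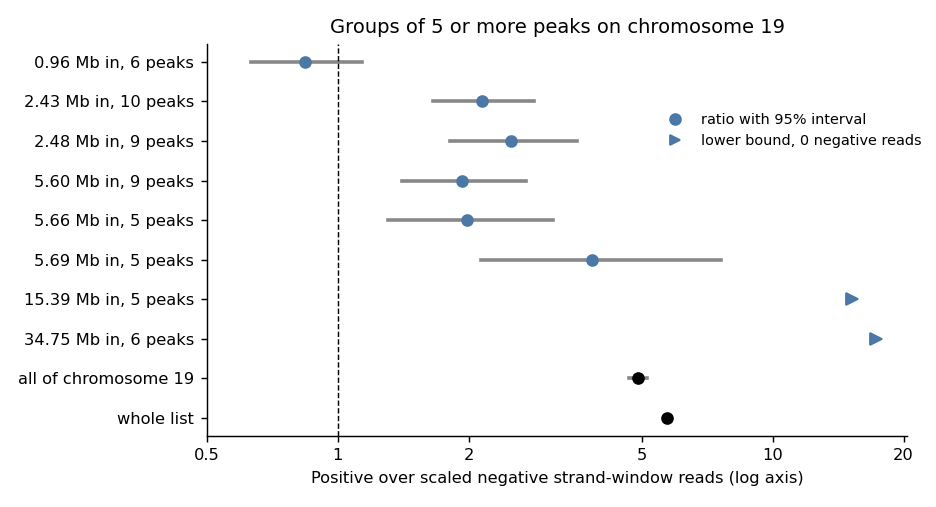
Points give the strand ratio of each group of 5 or more peaks on a log axis with its exact 95% interval, triangles give lower bounds where no negative read was listed, and groups are named by their distance from the first listed peak in Mb and their number of peaks; the dashed line marks a ratio of 1. The first group has a ratio of 0.842 with an interval that crosses that line, and the last 2 have bounds of 15.3 and 17.3.

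The 10 best-ranked peaks of chromosome 19 have ranks from 38 to 239 and 52 to 97 positive reads. Of these, 7 lie in the 3 to 13 Mb stretch, which holds 26.2% of all peaks of the chromosome and was cut after the counts were seen. Only 3 have no negative read: from 12080517 to 12080562 with 71 positive reads (at least 7.13-fold higher), from 10134527 to 10134555 with 62 (6.22-fold) and the first peak of the second large group. In the other 7 the strand ratio runs from 1.15 to 10.5. The best-ranked, from 47824888 to 47824949, has 61 positive reads, all in 1 window, against 11 negative reads, a ratio of 1.67 (0.871 to 3.52) whose interval includes 1. In 4 of the 10 the interval includes 1, so a good rank did not mean that control reads were absent. Among chromosome 19 peaks in the better-ranked 50%, 23.3% have negative strand-window reads, against 22.2% of all its peaks. The peak with the most positive reads, from 38030073 to 38030126, has 97 reads and rank 42, with a ratio of 3.65 (1.78 to 8.70). The peak from 50240023 to 50240051 is 29 bp long with 56 positive reads over the peak, and its windows give 42 against 11 reads (1.15, 0.582 to 2.48). The peaks from 10572161 to 10572228 and from 10753128 to 10753212 have 67 and 69 positive reads and ratios of 2.84 (1.30 to 7.34) and 1.81 (0.947 to 3.79). In 1012 of the 1014 peaks the deposited fold is log2(highest positive window + 1) to within 0.001, so that it holds no control read.

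Of the 5 densest bins, 5 to 6 Mb and 47 to 48 Mb have their best-ranked peak among the 10 above. In the others, the best-ranked peak lies outside the 10. From 4 to 5 Mb it is the peak from 4340436 to 4340536, with 44 positive reads and no negative read, at least 4.42-fold higher. From 37 to 38 Mb it is the peak from 37164074 to 37164146, with 46 and none, at least 4.62-fold higher. From 46 to 47 Mb it is the peak from 46592311 to 46592378, with 48 positive reads and a ratio of 1.28 (0.673 to 2.64). The last listed peak, nearest the distal telomere, runs from 61275158 to 61275587, is 430 bp long and has 63 positive reads and no negative read, at least 6.32-fold higher. The first, from 3353757 to 3353850, has 30 and none. The last 1 Mb holds 26 peaks with a ratio of 6.11 (4.45 to 8.62), and the first 1 Mb, which includes the proximal group, holds 36 with 2.84 (2.35 to 3.46).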

How the data were processed

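The series holds RAP1 ChIP-seq of mouse fibroblasts; the values come from 1 deposited peak list, with no column for a single library. Per the file headers, it gives whole-peak and strand-window counts of positive and negative reads, the highest window as a coverage signal in reads, log2 fold values and a false discovery rate, a q-value. Coordinates are mm9 (per the submitters' processing notes); the sources used here name no aligner, caller, filter, library depth or role of the input. The scale of 3.32 was solved from the deposited log2 folds (140 of 141 entries within 0.001). Computed here, in Python 3.11.15 with scipy 1.17.1: counts per 1 Mb bin by peak midpoint, groups at gaps up to 10 kb, exact conditional binomial intervals of ratios, Clopper-Pearson intervals of shares, and bounds that put 3 negative reads, per peak or group, in place of 0 (9.96 after scaling). Code was tested on simulated data. Peaks named are the 10 best-ranked, the best of the 5 densest bins, the groups of 5 or more (every member for 3 of them), the first, the last and the broadest; others (3 with whole-peak negative reads, a read-rich peak, edge peaks, peaks between groups) and the 8 stretches were chosen after their values were seen. Members and lists were chosen with earlier results of these data known. A test of wild-type against deleted libraries needs values per library and was not run.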

Additional observations from a re-analysis of the deposited data

How the results depend on the processing

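Of 31 alternative values, 24 stayed within the 95% interval of the reported one. Some of these did not change at all: negative reads in any column gave the same 22.2% of peaks. Gaps of up to 5 kb gave the same proximal and second large groups. Many others reuse a large part of the same peaks, so the tally is no measure of robustness. The density of chromosome 19 was 1.35 to 1.43 times the autosome median under all 6 alternatives tried. Counting reads over the whole peak instead of the strand windows moved every ratio: to 3155 for the chromosome, on 3 negative reads, to 134 for the first large group, on 1, and to bounds of 34.8 for the second and 18.3 for the proximal group. With gaps of up to 20 kb both large groups merge into 22 peaks (2.34), and the proximal group grows to 9 peaks with a ratio of 1.14. Without peaks of 29 to 31 bp the chromosome's ratio was 5.75. A megabase starting 500 kb earlier held 4.14% of its peaks. The depth of single libraries is unknown here. No paired analysis was possible because the list has no column for a single library; for the same reason no library was left out in turn.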

Other observations

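The shortest peaks of chromosome 19 carried more control reads than its longer ones. Of its 188 peaks of 29 to 31 bp, 61 (32.4%, 25.8 to 39.6) have negative strand-window reads, with a strand ratio of 2.83 (2.60 to 3.10). The 826 longer peaks have them in 19.9% (17.2 to 22.7), with a ratio of 5.75 (5.45 to 6.08). Over the whole list the same classes give 3.19 and 6.76. Peaks with 50 or more positive reads also had control reads more often, 23 of 51 (45.1%, 31.1 to 59.7), and so do those of the whole list, at 42.3%. The broadest peak of the chromosome, from 37982298 to 37982820, spans 523 bp with 62 positive reads, rank 29563 and a ratio of 3.79 (1.54 to 12.1).

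The 7 peaks whose deposited log2 fold of a single strand is under 0 have more scaled negative than positive reads at that position. All 7 are 29 or 30 bp long, with 15 to 28 positive reads. They include the first peak of the group of 10, from 5786593 to 5786621. Their strand ratios run from 0.425 (0.219 to 0.843) for the peak from 55594453 to 55594481 to 2.11 for that first peak.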
